A study of Mus musculus with 2 samples.

Results

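MHC genes and the machinery that loads their products were examined in macrophages of the mouse colon, taken as every probe set whose listed gene symbol begins with H2- (the mouse MHC), plus the probe sets of B2m, Tap1, Tap2, Tapbp, Tapbpl, Erap1, Nlrc5, Ciita, Cd74, Cd1d1, Mr1, Calr, Canx and Pdia3. This gave 71 of the 35556 probe sets on the arrays, which carry 56 member gene symbols of the 21335 listed for the arrays, 44 of them on chromosome 17. The series compared inflammatory with control macrophages, and it holds 1 array for mice that drank water for 5 days and 1 array for mice that drank 3% (wt/vol) dextran sulfate sodium (DSS) for 5 days, an agent that injures the colon lining. The labels give no strain, age, genotype or number of mice for either array. Total RNA came from lamina propria cells sorted as CD45+IAb+CD11b+F4/80+CD103-. The IAb antigen is an MHC class II protein, so the gate selected on a product of the class II genes described here. Purity of the sort is not given in the labels, and neutrophil and monocyte markers were bright on the DSS array, with values given at the end.

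MHC class I proteins sit on nearly all nucleated cells and show CD8+ T cells short peptides, which are cut in the cytosol by the proteasome and pumped into the endoplasmic reticulum by the TAP transporter. MHC class II proteins belong mainly to professional antigen-presenting cells, gut macrophages among them, and show CD4+ T cells peptides of engulfed material that are exchanged in late endosomes for a fragment of the invariant chain. Interferon gamma is known to raise both sets of genes, class I through the transactivator NLRC5 and class II through CIITA.

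Values are log2 signals as deposited, and a difference is the DSS signal minus the control signal. There was 1 array in each group, so no replicate error exists, no test was possible, and each difference compares these 2 arrays. The array medians were 5.70 in control and 5.62 in DSS. A probe set entered counts and medians (it passed the signal rule) if its signal reached the median of 1 or both arrays, as 58 of the 71 did. Passing this rule does not show that a gene was detected. Over the 13151 named probe sets that passed, the median difference was -0.01, the middle 50% lay between -0.26 and 0.26, and the robust SD was 0.39. Different probe sets of 1 gene differed with a pooled SD of 0.28, over 654 genes, which covers the spread between probe sets and none between mice. These are bulk RNA values, so fewer cells of a type and less RNA per cell cannot be told apart.

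The DSS array had higher signals for parts of the class I pathway, while most class II genes had nearly the same signal on both arrays. At least 2-fold higher were 7 of the 58 passing probe sets (12.1%), against 4.17% of all named probe sets that passed. Of the 7, Nlrc5 probe sets 10574145 and 10574135 passed the signal rule only through the DSS array, where they are high. Where both arrays had to reach their median, the count was 5 of 53, against 3.47% of all named probe sets under that rule. The 7 stand for only 4 genes, Nlrc5 (4 probe sets), Tap1, H2-T24 and H2-Q5. At least 2-fold lower were 0 of 58, against 2.87% of all. Nlrc5 has 19 probe sets and so weighs heavily in such counts. Without it, 3 of 40 (7.50%) were at least 2-fold higher. At a size of 1.5-fold, 17 of 58 were higher, against 10.2% of all named probe sets, and 1 was lower, Mr1, against 8.18%. Of the 17, Nlrc5 probe sets 10574145, 10574135 and 10574139 and that of H2-Q10 passed only through the DSS array, where they are high. No count at 1.5-fold with both arrays required is given here. Without Nlrc5, 6 of 40 were at least 1.5-fold higher, namely Tap1, H2-T24, H2-Q5, Tapbpl, H2-Q10 and H2-Oa.

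**Figure D1:**
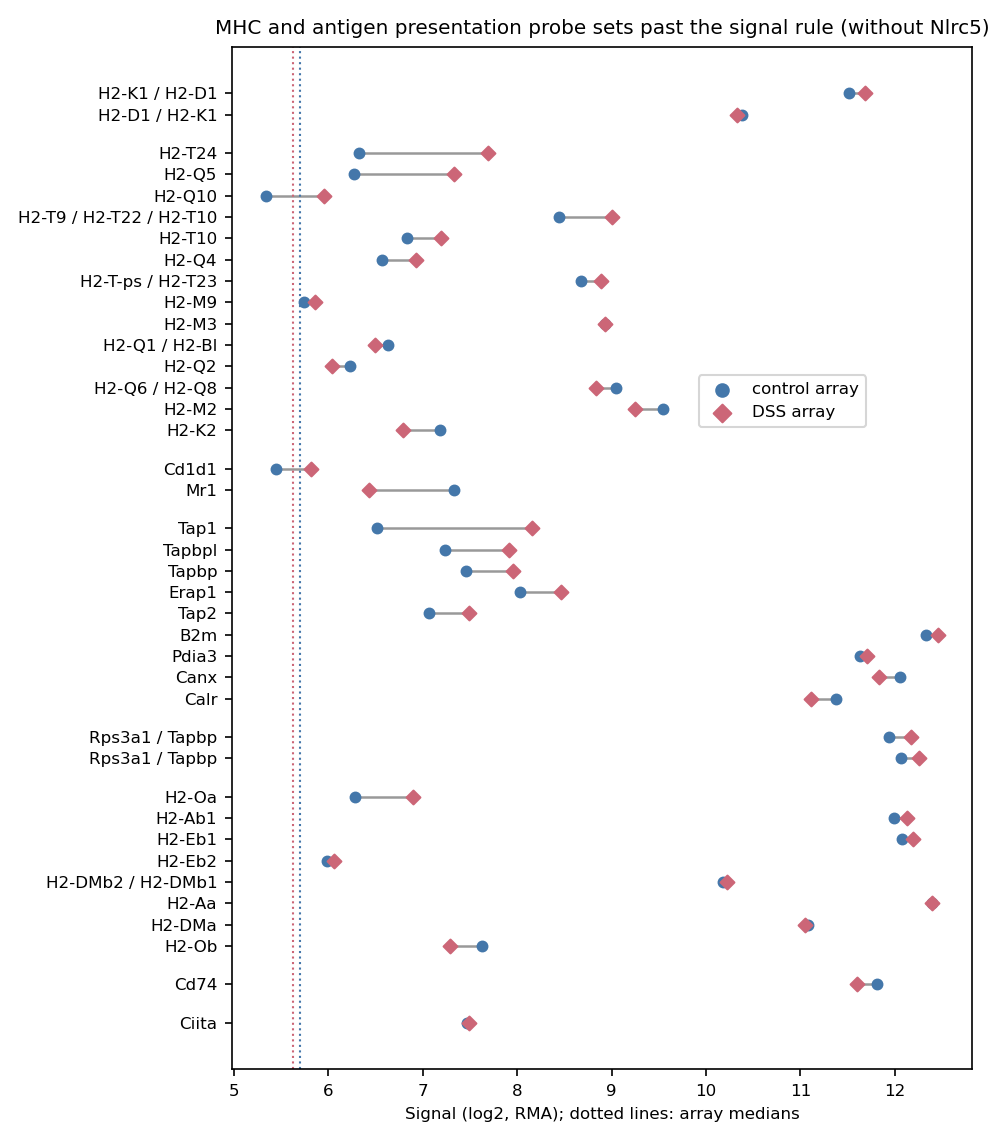
Log2 signal on the control array (blue circles) and the DSS array (red diamonds) of the 39 MHC and antigen presentation probe sets that passed the signal rule, without Nlrc5 and H2-Ke6, grouped by role, with the array medians as dotted lines. Tap1, H2-T24 and H2-Q5 have the longest lines to the right, Mr1 has the longest to the left, and the bright class II chains near 12 barely separate.

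The classical class I heavy chains H2-K1 and H2-D1, which present peptides to CD8+ T cells, had no probe set of their own. Both of their probe sets list both genes together with LOC547349, so the values belong to the group. Probe set 10450075, which lists H2-K1 first, read 11.51 in control and 11.69 in DSS. Probe set 10444780, which lists H2-D1 first, read 10.38 in control and 10.33 in DSS. Their differences of 0.18 and -0.05 are smaller than the spread between probe sets of a gene, and the second turned positive under median centring of the arrays. B2m, the light chain that all class I heavy chains need, read 12.33 in control and 12.46 in DSS, and its difference of 0.13 turned to -0.06 under loess centring.

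The non-classical class I genes, a large set of H2-Q, H2-T and H2-M heavy chains with narrower expression, varied more. Of 25 probe sets, including the pseudogene H2-K2, 14 passed the signal rule, with differences from -0.39 to 1.37 and a median of 0.17. The largest difference was that of H2-T24, with 6.32 in control against 7.69 in DSS, a 2.58-fold difference. One at least as high was found in 2.33% of all passing named probe sets. H2-Q5, listed by RefSeq as a transcribed pseudogene, followed with 6.28 in control against 7.34 in DSS, a 2.08-fold difference. H2-Q10, known as a secreted class I protein of the liver, read 5.33 and 5.95, and its control value lay below the median of 5.70. All 3 had control signals of 6.32 or less.

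All 4 passing H2-T probe sets had positive differences, with a median of 0.46, under both centrings as well. Besides H2-T24 these were a set shared by H2-T9, H2-T22 and H2-T10 (8.44 in control, 9.002 in DSS), another for H2-T10 alone (6.83 and 7.20), and a set shared by H2-T-ps and H2-T23 (8.67 and 8.89). H2-T22 encodes a ligand of some gamma-delta T cells, RefSeq lists H2-T10 as a transcribed pseudogene, and H2-T23 encodes Qa-1, a ligand of inhibitory NK receptors. The 6 H2-Q probe sets divided evenly in sign. H2-Q5, H2-Q10 and H2-Q4 (6.57 and 6.92) were higher in DSS, while the set of H2-Q6 and H2-Q8 (9.05 and 8.83), H2-Q2 (6.22 and 6.04) and the set of H2-Q1 and H2-Bl (6.63 and 6.50) were lower. Among the 12 H2-M probe sets only 3 passed. H2-M3, which presents N-formylated peptides of bacteria, read 8.93 on both arrays. H2-M2 read 9.54 and 9.25, and H2-M9 read 5.74 and 5.86. Among class I probe sets past the signal rule, H2-K2 had the most negative difference, with 7.19 in control against 6.79 in DSS. Class I genes are closely related in sequence, and 7 of the 27 class I probe sets list several genes. Signal from a neighbour cannot be separated from a gene's own signal in such sets, and cross-hybridisation of the others was not tested.

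The machinery that supplies and loads class I had higher DSS signals in most of its members. Of the 9 probe sets that name only loading genes, 7 had positive differences and the median was 0.42. Tap1, a subunit of the peptide transporter, read 6.52 in control against 8.15 in DSS, a 3.11-fold difference, and 1.66% of all passing named probe sets had a difference at least as high. Tap2, its partner subunit, read 7.06 and 7.49. The difference of Tap1 was thus 1.64 and that of Tap2 0.42, although both are needed for 1 transporter.

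Tapbpl, which encodes the peptide editor TAPBPR, read 7.24 in control against 7.91 in DSS, a 1.59-fold difference. Tapbp, which encodes tapasin, the bridge from TAP to class I, read 7.46 and 7.96 on its own probe set. A further 2 probe sets list Tapbp together with the ribosomal protein gene Rps3a1, at 12.07 and 12.26 for the first and 11.94 and 12.18 for the second. They cannot be assigned to Tapbp and were kept out of the role groups. Erap1, the aminopeptidase that trims peptides in the endoplasmic reticulum, read 8.03 in control and 8.47 in DSS.

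The general chaperones of the same compartment did not follow. Calr (calreticulin) read 11.38 in control and 11.11 in DSS, and Canx (calnexin) read 12.06 and 11.83. Pdia3, the thiol oxidoreductase ERp57, read 11.63 and 11.71, a difference that turned negative under loess centring. Thus 5 of the 9 loading probe sets (Tap1, Tapbpl, Tapbp, Erap1, Tap2) had differences of at least 0.42, and the other 4 lay between -0.27 and 0.13. The first 5 had control signals between 6.52 and 8.03, while the other 4 were at 11.38 or above.

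**Figure D2:**
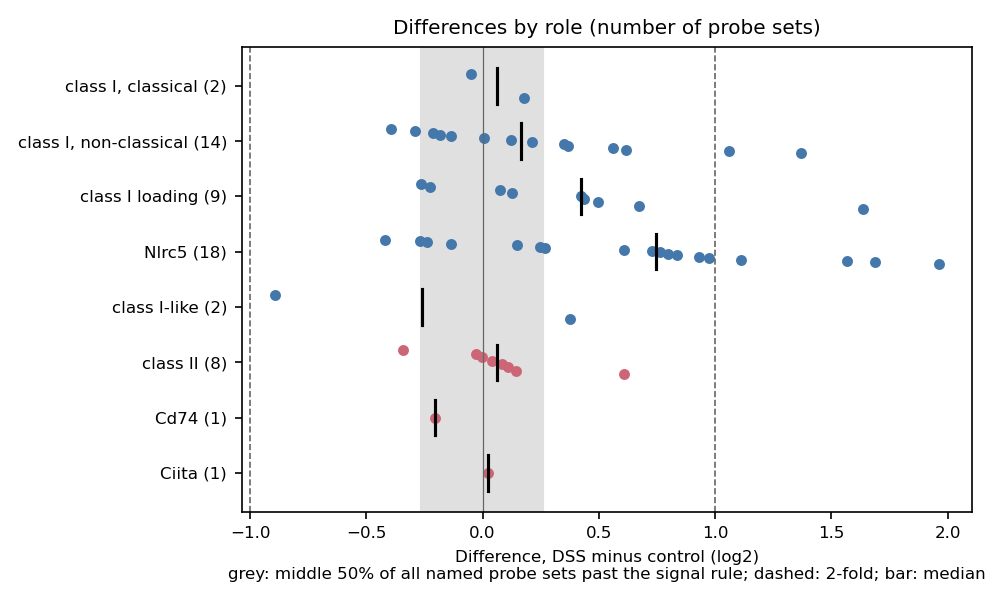
Log2 difference, DSS minus control, of each passing probe set (points) by role, with the median of each role as a bar, the middle 50% of all named probe sets in grey and 2-fold as dashed lines. The Nlrc5 and class I loading medians (0.75 and 0.42) lie to the right of the grey band, while the class II median (0.06) lies inside it.

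Nlrc5, the transactivator of class I genes, was covered by 19 probe sets that gave unlike answers. Signals ran from 4.28 to 8.91 in control, with a median of 6.40, and from 5.27 to 8.79 in DSS, with a median of 7.10. DSS was higher in 15 of the 19 and lower in 4. Among the 18 past the signal rule, DSS was up by 2-fold or more in 4, against 4.17% of all named probe sets that passed. It was up by 1.5-fold or more in 11, against 10.2% of all, and down by as much in 0, against 8.18%. These 18 read 1 gene and are not independent calls. Their median difference was 0.75, and that of all 19 was 0.73. Probe sets 10574145, 10574135 and 10574139, all in the 11, passed only through the DSS array, where they are high. Of these, 10574145 and 10574135 are also in the 4. No Nlrc5 count with both arrays required is given here.

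The largest Nlrc5 difference was that of probe set 10574149, with 6.83 in control against 8.79 in DSS, a 3.90-fold difference. Probe set 10574145 read 4.28 and 5.97, probe set 10574135 read 4.61 and 6.18, and probe set 10574098 read 6.27 and 7.38. The control signals of 10574145 and 10574135 were below the median of that array. The 4 probe sets lower in DSS had differences of -0.42 (10574133), -0.27 (10574155), -0.24 (10574100) and -0.13 (10574153). The brightest in control, 10574100, at 8.91 and 8.67, is therefore one of these 4. In DSS the brightest was 10574149, at 8.79. A gene summarised by its probe set brightest in control would give Nlrc5 a difference of -0.24, and by that brightest in DSS 1.96. The median of its passing probe sets gives 0.75. The SD of the differences was 0.69 over the 18 passing probe sets, against a median SD of 0.14 over the 53 genes that had 5 or more passing probe sets, among which Nlrc5 ranked 2 in spread. Whether the probe sets read different exons or transcripts is not given in the sources used here.

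**Figure D3:**
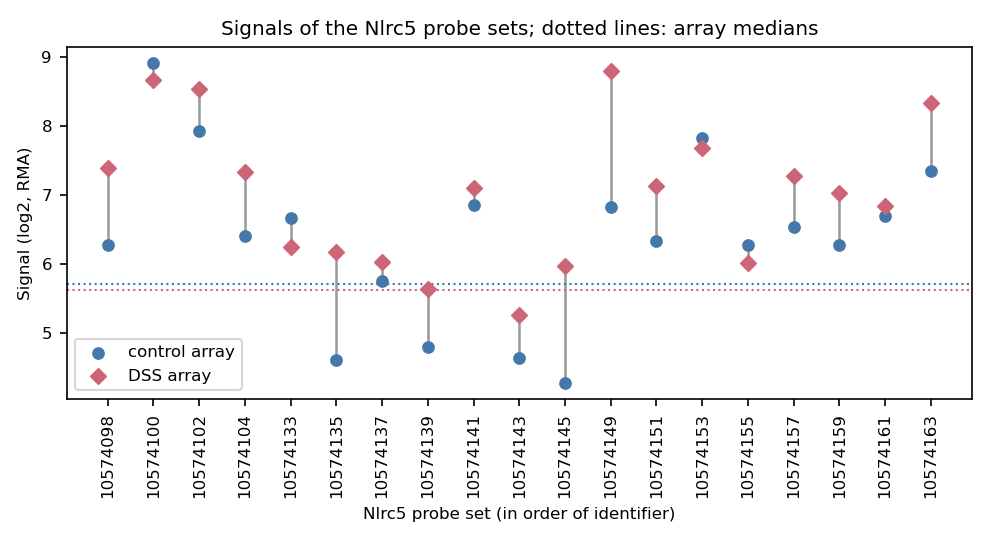
Log2 signal of the 19 Nlrc5 probe sets in order of identifier on the control array (blue circles) and the DSS array (red diamonds), with array medians as dotted lines. DSS is higher in 15 and lower in 4, and the probe set that is brightest in control, at 8.91, is among those 4.

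The promoters of 39 member genes were in the RefSeq promoter table (build GRCm38.p6), each a window from 250 bases before to 50 bases after a start site. The interferon-stimulated response element, the site bound by interferon regulatory factors and searched on both strands as GAAA, any 2 bases and GAAA again, was found in 4 of the 39, namely B2m, Erap1, H2-T22 and H2-T23, and in 3.44% of all 32851 promoters in the table. These 4 are shown because they place the letters on class I genes whose values are given above. Each run follows the gene's strand, and the capitals mark the match, which begins with TTTC where it lies on the opposite strand.
B2m (chr2:122147528-122147577, + strand): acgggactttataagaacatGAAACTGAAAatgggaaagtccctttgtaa
Erap1 (chr13:74639829-74639878, + strand): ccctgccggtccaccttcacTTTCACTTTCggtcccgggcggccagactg
H2-T22 (chr17:36042904-36042953, - strand): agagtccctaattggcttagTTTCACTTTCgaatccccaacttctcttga
H2-T23 (chr17:36032796-36032845, - strand): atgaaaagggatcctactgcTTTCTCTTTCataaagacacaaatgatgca
The probe sets of these genes had differences of 0.13 (B2m), 0.44 (Erap1), 0.56 (shared by H2-T22) and 0.21 (shared by H2-T23), of which that of B2m turned negative under loess centring. Members of the 39 without a match went both ways, such as Tap1 (1.64) and H2-M2 (-0.29). A match is a string of letters and no evidence of binding.

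Most class II genes had small differences between the arrays. Of 9 probe sets, 8 passed the signal rule, and the median difference was 0.06, with a range of -0.34 to 0.61. The count at 2-fold was 0 of 8, which is near the shares of 4.17% higher and 2.87% lower over all named probe sets. The chains of the 2 class II molecules were among the brightest members. H2-Aa, the I-A alpha chain, read 12.40 in control and 12.39 in DSS. The I-A beta chain gene H2-Ab1, whose protein the sort selected on, read 11.99 and 12.13. H2-Eb1, the I-E beta chain, read 12.08 and 12.19. All 3 are within 0.15 of 0, and H2-Aa, H2-Ab1 and H2-Eb1 each change sign with the centring, so they have no direction. H2-Ea, the I-E alpha gene, listed by RefSeq as a transcribed pseudogene, was under both array medians at 4.58 and 4.60, and H2-Eb2 read 5.98 and 6.06.

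The genes that edit class II peptides divided. H2-DMa read 11.08 in control and 11.05 in DSS, and the set shared by H2-DMb1 and H2-DMb2 read 10.18 and 10.22. H2-DM is the catalyst that exchanges the invariant chain fragment for a peptide, and the sign of both its values depended on the centring. H2-O is the protein that restrains H2-DM, and its chains went apart. H2-Oa, its alpha chain, read 6.28 in control against 6.89 in DSS, 1.53-fold up, and H2-Ob, its beta chain, read 7.62 against 7.28, 1.27-fold down. Both differences kept their sign under both centrings.

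Cd74, the invariant chain that escorts class II to the endosome, read 11.81 in control and 11.61 in DSS. Ciita, the transactivator of class II genes, read 7.47 and 7.49. Its difference of 0.02, from 1 probe set, can be set beside the 0.75 median of Nlrc5, the class I transactivator, with no test of the 2. The 18 passing Nlrc5 probe sets ran from -0.42 to 1.96, some of them passing only through the DSS array. The one brightest in control had -0.24, so the contrast depends on how Nlrc5 is summarised.

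The X and Y boxes, to which the RFX and NF-Y factors bind so that CIITA can be recruited, were searched as an X box core AGNAAC followed after 15 to 45 bases by ATTGG, the Y box on the same strand. This pair was found in 5 of 8 class II promoters, 2 of 22 class I promoters (H2-M2 and H2-M10.4) and 1.62% of all promoters in the table. The paired search overlaps the single ones, and the Y box alone (CCAAT on either strand) was in 37.4% of all promoters and the X box core alone in 48.1%. The 5 class II runs are shown because the pair was in a larger share of the class II than of the class I promoters. Capitals mark the X box core and the Y box.
H2-Oa (chr17:34092294-34092348, + strand): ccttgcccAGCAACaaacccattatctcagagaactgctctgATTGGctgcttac
H2-Ob (chr17:34238809-34238860, + strand): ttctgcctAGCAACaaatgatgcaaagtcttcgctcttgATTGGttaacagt
H2-DMb1 (chr17:34153088-34153142, + strand): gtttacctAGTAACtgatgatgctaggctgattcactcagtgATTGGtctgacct
H2-Eb1 (chr17:34305767-34305820, + strand): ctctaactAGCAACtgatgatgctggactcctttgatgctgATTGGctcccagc
H2-Eb2 (chr17:34325534-34325587, + strand): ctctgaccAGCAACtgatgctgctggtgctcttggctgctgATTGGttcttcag
The boxes are 25 to 28 bases apart in these 5. H2-Oa, H2-Ob, H2-Eb1 and H2-Eb2 share the same X box core, and their differences were 0.61, -0.34, 0.11 and 0.08.

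Set side by side, the median difference was 0.15 over 16 passing class I probe sets and 0.06 over 8 passing class II probe sets. The gap of 0.09 has no test. The sort selected on an MHC class II protein and on no class I protein, and the part of the sort in the gap was not tested. The 0.28 spread between probe sets of a gene holds for single probe sets and gives no spread for a gap between medians. The class II median turned to -0.08 under loess centring, while the class I median was then 0.08. With the helper genes added (the loading genes and Nlrc5 to class I, Cd74 and Ciita to class II), the medians were 0.35 and 0.03, a gap of 0.32. Of the class I side, 18 probe sets are then those of the single gene Nlrc5, and without it the median was 0.18 and the gap 0.14. The gap without helper genes was 0.06 where both arrays had to reach their median and 0.01 with no signal rule.

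Brightness bears on this comparison. Of the named probe sets with a mean signal of at least 11, 1.39% were 2-fold or more up in DSS and 0.64% were 2-fold or more down, with a median difference of 0.16, whereas between 7 and 9 the shares were 5.91% and 3.72%. The 12 members at or above 11 include 4 of the 8 class II probe sets and 1 of the 16 class I probe sets, and 0 of the 12 were 2-fold apart. Of the 7 members that were at least 2-fold higher, 3 had mean signals between 7 and 9 and 4 had mean signals under 7. Under 7 the shares over all named probe sets were 2.98% up and 2.49% down. The part of brightness in the gap between class I and class II was not tested.

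**Figure D4:**
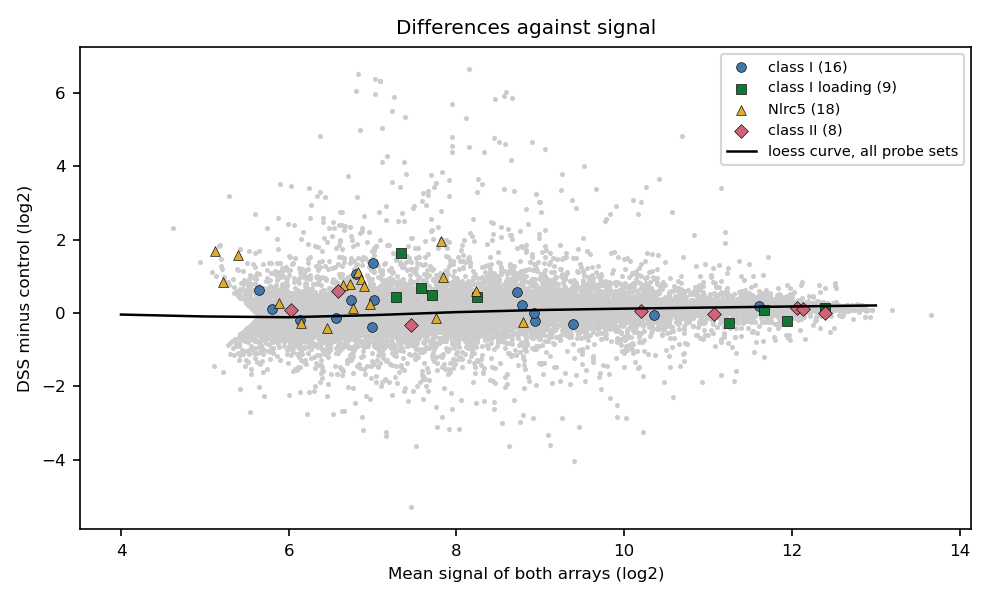
Log2 difference, DSS minus control, against the mean log2 signal of both arrays for all named probe sets past the signal rule (grey) and for class I, class I loading, Nlrc5 and class II probe sets (coloured), with the loess curve over all probe sets in black. The cloud narrows above a mean signal of 11, where 4 of the 8 class II probe sets lie.

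Along chromosome 17, in the gene order of RefSeq (GRCm38.p6), the higher signals lay inside the class II region as well as in the class I blocks. Tap1 and Tap2 sit among the class II genes, interleaved with the immunoproteasome genes Psmb9 and Psmb8 and followed by H2-Ob, H2-Ab1, H2-Aa and H2-Eb1. Psmb9 read 10.68 in control and 11.76 in DSS, Tap1 had its difference of 1.64, Psmb8 read 9.75 and 10.47, and Tap2 had its difference of 0.42. The flanking class II genes H2-DMb1 with H2-DMb2 on the one side and H2-Ob on the other had differences of 0.04 and -0.34. H2-Oa, a class II gene further out on the side of H2-DMb1, had a difference of 0.61, above that of Tap2.

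**Figure D5:**
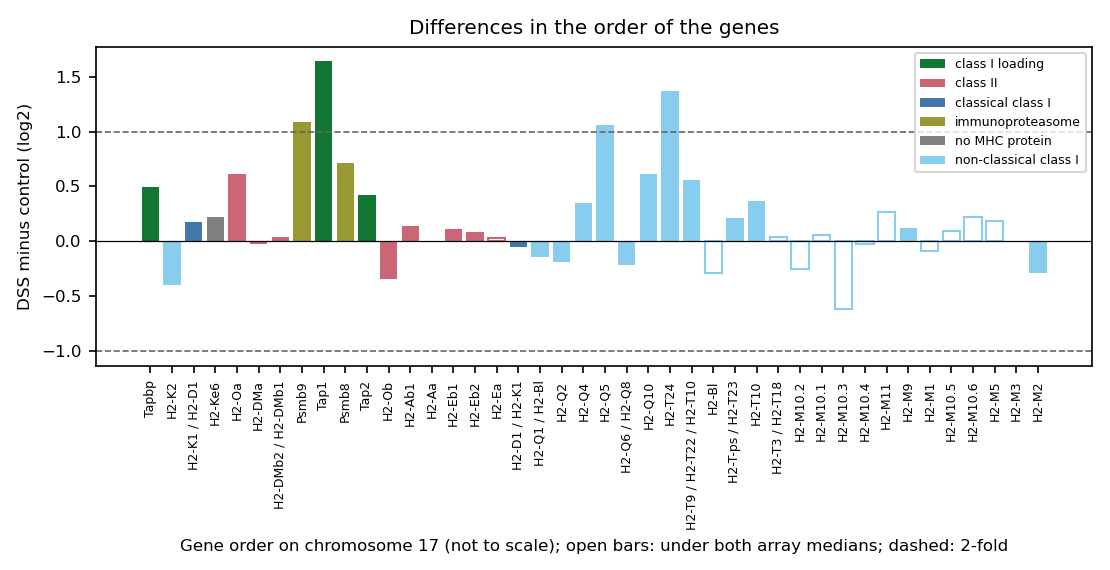
Log2 difference, DSS minus control, of the MHC probe sets, Psmb8 and Psmb9 in their RefSeq gene order on chromosome 17 (not to scale; a shared set stands at the first of its genes found in RefSeq; open bars are under both array medians). Tap1 (1.64) stands between Psmb9 (1.08) and Psmb8 (0.72), with H2-DMb2 / H2-DMb1 (0.04) and H2-Ob (-0.34) further out on either side. H2-T24 (1.37) leads the H2-T block.

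The class I-like genes outside the MHC went apart. Mr1, which presents microbial vitamin B metabolites to mucosal-associated invariant T cells, read 7.33 in control against 6.43 in DSS, 1.86-fold down, and 3.65% of all passing named probe sets had a difference at least as low. Cd1d1, which presents lipids to NKT cells, read 5.44 and 5.81, and its control value lay below the array median. H2-Ke6 carries an H2- name but encodes a steroid dehydrogenase and no MHC protein, and read 8.11 and 8.33.

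The 13 member probe sets under both array medians had signals from 3.602 to 5.70 in control and from 3.70 to 5.45 in DSS. They are the sets of H2-M1, H2-M5, H2-M11 and H2-M10.1 to H2-M10.6, H2-Bl, the set of H2-T3 and H2-T18, H2-Ea and 1 Nlrc5 probe set. H2-T3 encodes the thymus leukaemia antigen of gut epithelium, and the H2-M10 genes are known from the vomeronasal organ. Their differences, from -0.62 to 0.63, compare signals below both medians.

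Other genes of the pathways were read from lists, whose counts can be set beside the 4.17% of all named probe sets that were as far above control and the 2.87% that were as far below. The class I peptide supply list had 2 of 19 probe sets at 2-fold or more above control, 0 as far below, and a median difference of 0.40. Psmb9, a catalytic subunit of the immunoproteasome, was 2.12-fold higher, Psme2, a subunit of the PA28 activator, 2.11-fold (9.19 in control, 10.26 in DSS), and the set shared by Psme2b and Psme2 1.97-fold (8.69 and 9.67). None of the 19 reached 2-fold under loess centring. Only Hspa5 (12.38 and 12.19), the chaperone BiP, and Bcap31 (10.20 and 10.06) were lower. The list from interferon gamma to MHC had 1 of 9 at 2-fold or more above control, 0 as far below, and a median of 0.40. Jak2, a kinase of the interferon gamma receptor, read 9.55 in control against 10.63 in DSS, 2.12-fold up and under 2-fold with loess centring. Irf1 read 8.22 and 9.10 on one probe set and 8.85 and 9.69 on the other. Irf9 read 7.52 and 8.15, and Socs1, a feedback inhibitor, was the one lower gene past the signal rule at 6.97 and 6.71. Ifng itself was under both medians at 5.29 and 5.50.

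The class II lists follow, with no test of a difference from the class I lists. The class II processing and trafficking list had 0 of 15 at 2-fold or more above control, 1 as far below, and a median of -0.21. Cd83, which slows the removal of class II from the surface, read 10.93 in control against 9.79 in DSS, 2.20-fold down. Marchf8, a ubiquitin ligase of membrane proteins, read 6.72 and 5.78, and the lysosomal channel gene Mcoln1 read 8.95 and 8.36. Ctss, the cathepsin that trims the invariant chain, lay furthest the other way at 12.37 and 12.68, followed by Ifi30 (11.29 and 11.57) and Sppl2a (11.08 and 11.30). The class II transcription list had 0 of 11 at 2-fold or more above control, 1 as far below, and a median of 0.15. Irf4, a transcription factor of macrophages and lymphocytes, read 7.66 in control against 6.14 in DSS, 2.88-fold down, followed by Nfya (8.38 and 8.13) and Creb1 (9.81 and 9.74, positive under median centring). Nfyb (8.29 and 8.96), Rfxap (7.51 and 7.94) and Spi1 (9.24 and 9.64) lay furthest the other way. Of the 5 passing probe sets of other MHC-fold proteins, 1 was at least 2-fold higher, Procr, the protein C receptor, at 6.48 and 8.08, a 3.02-fold difference, and the median was -0.01. H60b, a ligand of the NKG2D receptor, was next at 6.62 and 7.36. Mill2 (5.72 and 5.38), Raet1d (6.85 and 6.75) and Hfe (8.13 and 8.12, positive under median centring) lay below.

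Genes of the sort antigens other than IAb gave these signals. The CD45 gene Ptprc read 11.54 in control against 11.94 in DSS, and the CD11b gene Itgam read 9.59 against 10.19 on its own probe set. Adgre1, which encodes F4/80, read 11.65 in control and 10.82 in DSS, and Itgae, which encodes CD103, was under both medians at 4.89 and 4.91. Markers of some cell types, but not of all, moved with the comparison. All 11 neutrophil markers and all 8 monocyte probe sets were at least 2-fold higher in DSS, with linear signals summed over the list of 1969 in control and 33033 in DSS for neutrophils and 2197 and 17360 for monocytes. Of 14 resident macrophage markers, 6 were at least 2-fold lower and 0 higher, with sums of 30315 and 16423. Dendritic cell markers, of a cell type rich in class II, had 0 of 8 passing probe sets at 2-fold. Under median centring 3 were at least 2-fold higher, and 2 under loess centring, with 0 as far lower. Over all 10 probe sets of that list, 8 were higher in DSS. Cd209a (8.95 in control, 8.17 in DSS) and Zbtb46 (5.75 and 5.41) were lower, also under both centrings. The dendritic cell list had sums of 1292 and 1475. B cell markers, also of a class II cell type, had 6 of 7 probe sets under both array medians, Ms4a1, Cd79a and Pax5 among them, and sums of 257 and 278. Of the T and NK cell markers 6 of 8 were under both medians, Cd3e, Cd3d and Cd3g among them. Gzma was over 2-fold up and Cd4 over 2-fold down. Cd4, at 9.04 in control and 7.39 in DSS, was the brightest of the list and weighs most in its sums of 718 and 441. Epithelial markers had 0 of 4 passing probe sets at 2-fold and sums of 544 and 612. The part of these cell types in the MHC values was not tested.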

How the data were processed

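The values are log2 signals as the authors deposited them, for 35556 probe sets of an Affymetrix array, with RMA named in the submitters' processing notes, its version, settings and build not given in the sources used here. As a method, RMA scales arrays to a common distribution, so a shift shared by most genes would not show. The deposited values were used unchanged.

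Genes were named from the platform annotation, with 21789 probe sets of 1 symbol and 1621 of several. Of 58 Entrez identifiers on member probe sets, 57 matched the RefSeq table (GRCm38.p6). Array medians leave out 6617 probe sets below the lowest listed identifier. Probe sets, not genes, were counted. All members may be named, and of each pathway list the 3 furthest in each direction past the signal rule. Members and lists were chosen with earlier results of these data known. Alternatives covered the scaling (median, or loess with span 0.4), signal rule, floor, unit and fold size. A further motif that was searched is not reported here. Steps were tested on simulated data. Python 3.11.15, numpy 2.4.6, pandas 2.3.3, statsmodels 0.14.6 and matplotlib 3.10.9 were used. The number of arrays limits the precision.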

Additional observations from a re-analysis of the deposited data

How the results depend on the processing

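The count of members at least 2-fold higher in DSS, 7 as reported, was 9 under median centring, 8 under loess centring, 5 when both arrays had to reach their median, and 7 with no signal rule or with a floor at the 25th percentile. It was 3 with 1 probe set a gene (Nlrc5 then reads 10574100, its set brightest in control), 3 at 3-fold and 17 at 1.5-fold. Both alternatives on Nlrc5, chosen after seeing the data, gave 3 each (its median in place of its probe sets, and without it). The helper genes without Nlrc5 were also added after seeing the data. The count of members at least 2-fold lower was 0 in every such setting, and 1 at 1.5-fold. Over all 13151 named probe sets that passed, 549 were at least 2-fold higher and 378 lower as reported. These counts were 645 and 324 under median centring, and 553 and 363 under loess centring. With both arrays required, 3.47% of all were higher. At 1.5-fold, 10.2% of all were higher and 8.18% lower. Shares over all under the other settings are not given here. The class I median ran from 0.06 to 0.35 and the class II median from -0.08 to 0.15. The share of higher among all 2-fold calls was 59.2%, and 66.6% under median centring. Of 58 passing members, 3 turned sign under median centring and 6 under loess centring, none with a difference above 0.14 in size. No paired analysis was possible because each group has 1 array, and no replicate could be left out. Loess centring shifted values by -0.12 at a mean signal of 6 and by 0.18 at 12. No detection calls are used here, so dim signals cannot be told from background.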
